A study of Mus musculus with 7 samples.

Results

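The genes described here were 8 receptor tyrosine kinases outside the FGF receptor family (Egfr, Erbb2, Erbb3, Igf1r, Insr, Kit, Met and Tie1) and 2 ligands of the EGF family (Hbegf and Areg). They make up 10 of the 52636 genes in the count table. Of these, 9 were chosen by role, as receptors and ligands that can feed the ERK pathway while FGF receptors are blocked. Tie1 was chosen by its measured value, because it is low at 4 h in these libraries, so its change is given as a description with no test.

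The series asked how pluripotent cells of the mouse embryo respond in transcription to ERK, using bulk RNA sequencing of inner cell masses (ICMs). All embryos had the genotype Sox2Cre;CRAFR26, which combines a Cre recombinase under the Sox2 promoter with a tamoxifen-inducible form of the kinase CRAF, which acts upstream of ERK. They were flushed at E2.5 and kept for 24 h in KSOM medium containing 250 nM PD173074, an FGF receptor inhibitor, and this blocked state was shared by every library, controls included. The vehicle group (time label 0 h, 3 libraries) received ethanol for 4 h and the tamoxifen group (4 h, 4 libraries) received 250 nM 4-hydroxytamoxifen.

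Each library came from 2 ng of RNA of 10 pooled ICMs, from which the trophectoderm had been removed by immunosurgery, and the labels call the tissue E3.5 epiblast. Libraries came from 2 embryonic stem cell clones that carried the construct, clone 4 and clone 8. The vehicle libraries were clone4_1, clone4_2 and clone8_1, and the tamoxifen libraries were clone4_1, clone4_2, clone8_1 and clone8_2. Clone 8 thus had 1 vehicle library. P-values measure the spread between these pools.

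Receptor tyrosine kinases are surface proteins that pair up when a ligand binds, phosphorylate each other on tyrosine and recruit adaptors that switch on RAS, RAF and ERK, and in parallel PI3 kinase. In the ErbB family, ERBB2 binds no known ligand and ERBB3 has very weak kinase activity, so the pair signals as a heterodimer. In the blastocyst, FGF4 acting on FGF receptors is the known source of ERK activity that divides epiblast from primitive endoderm, while insulin and IGF receptors, KIT and the EGF family are known for roles in survival, in the germline and in the dialogue of the embryo with the uterus.

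The promoters of 3 genes are printed because they span the range of levels in these libraries: Erbb2, among the most abundant receptors, Areg, with no read in any library, and Tie1, the gene chosen by its change. Each is the 250 bases before the RefSeq start site in GRCm38.p6, read 5′ to 3′ on the strand of the gene, with CpG dinucleotides in capitals.
Erbb2 (chr11:98412234-98412483, plus strand): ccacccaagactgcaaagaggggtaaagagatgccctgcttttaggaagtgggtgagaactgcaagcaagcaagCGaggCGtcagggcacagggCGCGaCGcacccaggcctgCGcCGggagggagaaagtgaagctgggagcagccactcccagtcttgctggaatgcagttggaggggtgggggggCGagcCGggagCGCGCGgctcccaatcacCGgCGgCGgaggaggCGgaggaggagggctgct
Areg (chr5:91139349-91139598, plus strand): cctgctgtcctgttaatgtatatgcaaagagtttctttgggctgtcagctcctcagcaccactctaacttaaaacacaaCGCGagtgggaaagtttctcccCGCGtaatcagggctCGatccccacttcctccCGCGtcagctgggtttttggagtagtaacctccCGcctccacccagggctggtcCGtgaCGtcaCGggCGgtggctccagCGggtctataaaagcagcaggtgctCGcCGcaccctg
Tie1 (chr4:118489850-118490099, minus strand): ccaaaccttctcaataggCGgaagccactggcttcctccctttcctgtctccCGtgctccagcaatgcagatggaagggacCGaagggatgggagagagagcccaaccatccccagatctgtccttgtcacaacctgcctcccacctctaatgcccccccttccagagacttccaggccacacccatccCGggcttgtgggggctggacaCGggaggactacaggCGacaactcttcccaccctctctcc
The Erbb2 window held 16 CpG dinucleotides and 66.0% G or C, the Areg window 15 and 57.2%, and the Tie1 window 6 and 60.4%, against medians of 6 and 52% over 27018 promoters. Areg and Erbb2 thus had like CpG numbers with opposite levels of counts. The RefSeq start of Tie1 lies 212 bases inside the GENCODE gene model, and that of Erbb2 lies 14 bases inside its own. Promoter windows were examined for 7 of the 10 genes. No window was used for Erbb3, Hbegf and Insr, so the motif search does not cover them. This does not mean that RefSeq lacks start sites for these genes. Motifs of 3 factor families linked to ERK-responsive factors were searched on both strands: AP-1 (TGANTCA, in 6.87% of all promoters), ETS (CCGGAAG, in 7.05%) and EGR (GCGGGGG, in 9.4%). None of these strings was in the windows of Tie1, Erbb2, Areg or Kit. Egfr held the ETS string 120 to 114 bases before its start, Met held the AP-1 string at 54 to 48, and Igf1r held the EGR string at 66 to 60 and at 41 to 35. The RefSeq starts of Met and Igf1r lie 157 and 570 bases from the GENCODE starts, so these positions depend on the annotation. The Igf1r window held 42 CpG dinucleotides and 77.6% G or C, and the shares above are not matched for such composition.

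The libraries held 22981498 to 42294719 counts. Values are CPM, that is, a count divided by the TMM-scaled size of its library and expressed relative to the same round total, and levels are compared between genes only per transcript length, in TPM (transcripts relative to all transcripts of the library) computed from the counts. Summed over 10 markers each, naive epiblast genes reached 1680 to 2220 CPM over the 7 libraries. Primitive endoderm genes reached 845 to 1150 CPM, most of it Dab2 (560 to 823 CPM). Trophectoderm genes reached 6730 to 11500 CPM, with Krt8 (2250 to 3840 CPM) and Krt18 (1970 to 4130 CPM) the highest. Transcripts known from the outer layer were thus present in every library labelled epiblast. Both clone8_1 libraries correlated least with the others (mean Pearson r of log2 CPM across genes 0.929 for vehicle and 0.931 for tamoxifen, against 0.944 to 0.955). In vehicle clone8_1, genes with transcripts under 1000 nt were 1.01 lower on the log2 scale, relative to genes of 2000 nt or more, than the median library, and the other libraries lay between -0.01 and 0.22. Values without both clone8_1 libraries are given for Erbb2, Erbb3, Hbegf and Tie1 and for some counts of genes. For the other genes named, such values are not given.

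Per length, the ErbB pair led the order. In vehicle libraries Erbb3 stood at 30.2 ± 1.26 TPM, Erbb2 at 13.1 ± 1.45, Tie1 at 9.14 ± 1.59 and Hbegf at 4.78 ± 4.20 (SD, n = 3). Kit followed at 1.09 ± 0.664 TPM, Insr at 1.00 ± 0.233, Igf1r at 0.169 ± 0.106, Egfr at 0.0653 ± 0.0574 and Met at 0.0208 ± 0.0292, and Areg was at 0. The vehicle ranges of neighbours in this order were apart for Erbb3 and Erbb2, for Erbb2 and Tie1, and for Insr and Igf1r. All other neighbours overlapped, Kit and Insr among them, whose order turned when lengths were taken as the union of exons. In tamoxifen libraries the order was the same except that Hbegf (5.55 ± 2.63 TPM) stood above Tie1 (3.40 ± 0.935 TPM, SD, n = 4), with overlapping ranges.

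**Figure D1:**
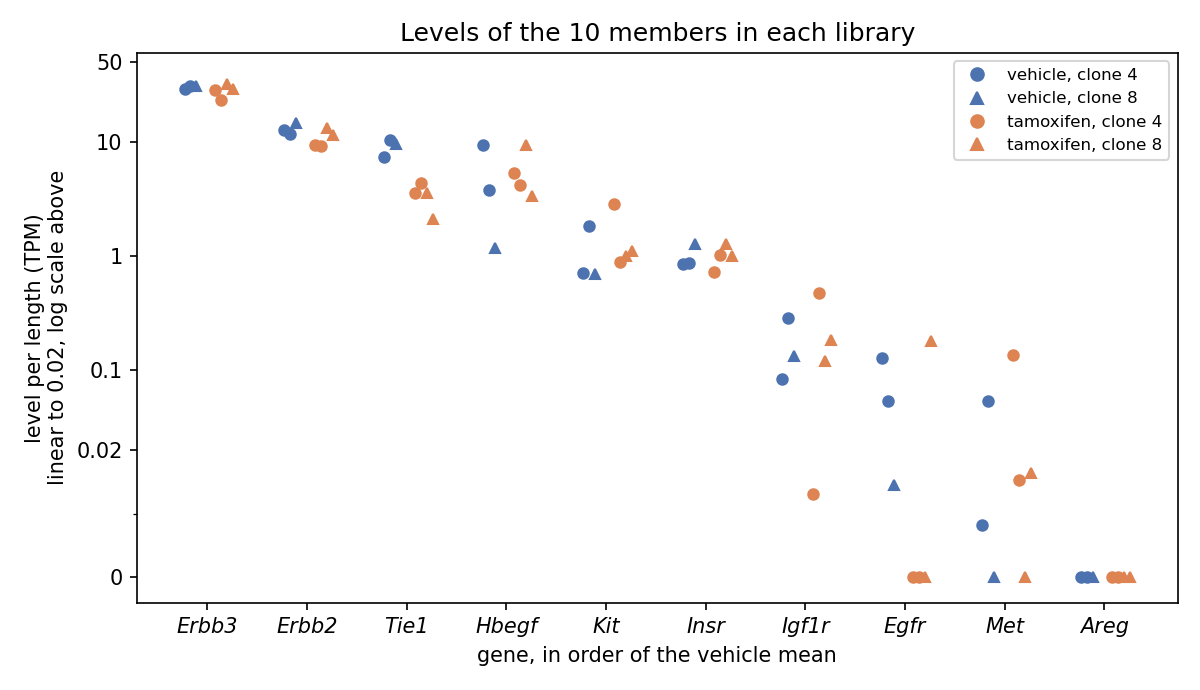
Level per transcript length (TPM, linear to 0.02 and logarithmic above) of the 10 genes in each of the 7 libraries, in order of the vehicle mean, with circles for clone 4 and triangles for clone 8. Erbb3 lies between 23.1 and 32.2 TPM and Erbb2 between 9.30 and 14.6 TPM, while Egfr, Met and Areg are at or near 0 and Tie1 is lower in the 4 tamoxifen libraries.

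Set among 35 receptor tyrosine kinases (the 8 receptors above and 27 others that are neither FGF nor Eph receptors), Erbb3 had the highest mean level over the 7 libraries, 29.0 TPM. Next came Ryk (16.8 to 33.0 TPM), a WNT co-receptor, and Tyro3 (19.7 TPM), a receptor for GAS6 and protein S. Pdgfra, a primitive endoderm marker, followed at 15.4 TPM (6.71 to 37.8 TPM), and Erbb2 was rank 5 at 11.8 TPM. The highest values of Ryk and Pdgfra lay above the highest of Erbb3 (32.2 TPM), so the order of means did not hold in every library. Tie1 was rank 7, Kit 11, Insr 12, Igf1r 17, Egfr 22 and Met 23. Erbb2 and Erbb3 together made up 75.9% to 89.8% (median 82.8%) of the summed level of the 8 receptors in each library.

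Of the 10 genes, 7 passed the filter on low counts and were tested, namely Erbb2, Erbb3, Hbegf, Igf1r, Insr, Kit and Tie1. Leaving out Tie1, 0 of the other 6 had an adjusted p under 0.05 between tamoxifen and vehicle (edgeR quasi-likelihood test, Benjamini-Hochberg over 16248 genes). The background was the same, with 0% of all genes tested called. DESeq2 called 4 genes of the whole table, none of them among these 6. At an unadjusted p under 0.05, 0 of the 6 passed beside 5.97% of all genes tested, and 0 had groups that did not overlap beside 8.45% of all genes tested. Fitted fold changes of the 6 were above 0 for 5 and below 0 for 1, with a median of 0.20 on the log2 scale, where the median over all genes tested was 0.02.

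**Figure D2:**
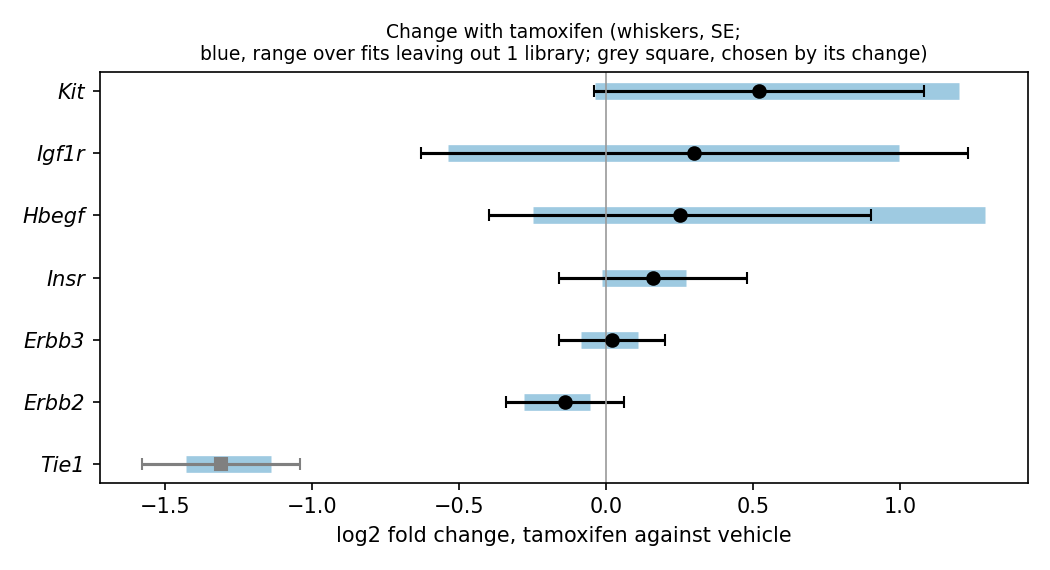
Fitted log2 fold change of the 7 tested genes, tamoxifen against vehicle, with whiskers of 1 SE and blue bars for the range over the 7 fits that each leave out 1 library. The grey square is Tie1 (-1.31), chosen by its change, and the blue bars of Kit, Igf1r, Hbegf, Insr and Erbb3 cross 0.

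Erbb2 encodes the receptor that serves as the preferred partner of the other ErbB proteins. It lies at chr11:98412470-98437716 on the plus strand (GRCm38) and overlaps 9 bases of Mien1 on the other strand. It stood at 41.8, 36.5 and 37.2 CPM in vehicle clone4_1, clone4_2 and clone8_1, and at 29.9, 28.2, 45.0 and 37.0 CPM in tamoxifen clone4_1, clone4_2, clone8_1 and clone8_2. The clone 4 tamoxifen libraries were the lowest 2 and a clone 8 tamoxifen library the highest, so the groups overlapped. The difference was -0.14 ± 0.20 on the log2 scale (SE), with a 95% interval from -0.59 to 0.32 and an adjusted p of 0.894 (edgeR quasi-likelihood test, Benjamini-Hochberg). It ran from -0.28 without tamoxifen clone8_1 to -0.06 without tamoxifen clone4_2, and was -0.31 without both clone8_1 libraries.

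Erbb3 encodes the neuregulin receptor that carries the docking sites for PI3 kinase. It lies at chr10:128567523-128589652 on the minus strand. Its counts were 113, 115 and 94.7 CPM in the vehicle libraries and 108, 84.1, 131 and 111 CPM in the tamoxifen libraries, in the same order. Both the lowest and the highest value were in tamoxifen libraries. The difference was 0.02 ± 0.18 on the log2 scale, with a 95% interval from -0.39 to 0.42 and an adjusted p of 0.99 (edgeR, Benjamini-Hochberg). Without tamoxifen clone8_1 it was -0.09, and without both clone8_1 libraries it was -0.17 and each tamoxifen library lay below each vehicle library. Erbb3 exceeded Erbb2 per length in each of the 7 libraries, by 2.12 to 3.01 times (median 2.48). The spread within groups was small for both, with an SD of log2 CPM of 0.23 for Erbb3 and 0.25 for Erbb2, where the median of all genes tested was 0.47.

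Egfr, the receptor for EGF, HB-EGF and amphiregulin, did not pass the filter. It had 22, 7 and 2 counts in the vehicle libraries and 0, 0, 0 and 31 counts in the tamoxifen libraries. The reads of the tamoxifen group were thus all in clone8_2, at 0.753 CPM, above each vehicle library. Egfros, the annotated antisense gene that overlaps Egfr, had 0 counts.

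Insr, the insulin receptor, lies at chr8:3122061-3279617 on the minus strand. It stood at 5.19, 5.08 and 6.02 CPM in the vehicle libraries and at 4.31, 5.82, 8.16 and 5.97 CPM in the tamoxifen libraries. The lowest and the highest values were again both in tamoxifen libraries. The difference was 0.16 ± 0.32 on the log2 scale, with a 95% interval from -0.55 to 0.86 and an adjusted p of 0.919 (edgeR, Benjamini-Hochberg), and without tamoxifen clone8_1 it was -0.02.

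Igf1r, the receptor for IGF1 and IGF2, lies at chr7:67952827-68233668 on the plus strand. It had 25, 65 and 32 counts in the vehicle libraries (0.620, 2.02 and 0.780 CPM) and 4, 76, 26 and 55 counts in the tamoxifen libraries (0.0947, 3.28, 0.939 and 1.34 CPM). The lowest and the highest libraries were both tamoxifen libraries of clone 4. The fitted difference was 0.30 ± 0.93 on the log2 scale, with a 95% interval from -1.78 to 2.38 and an adjusted p of 0.952 (edgeR, Benjamini-Hochberg). The difference of mean log2 CPM had the other sign, -0.21, and the fit without tamoxifen clone4_2 gave -0.54. With an SD of 1.55 within groups on the log2 scale, Igf1r varied more than 93.1% of the genes tested, at the low counts given above. Insr exceeded Igf1r per length in each vehicle library.

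Kit, the receptor for stem cell factor, lies at chr5:75574916-75656722 on the plus strand. It stood at 2.41, 5.98 and 1.85 CPM in the vehicle libraries (97, 192 and 76 counts) and at 9.45, 2.80, 3.58 and 3.67 CPM in the tamoxifen libraries (399, 65, 99 and 151 counts). One tamoxifen library, clone4_1, stood apart from the rest, and vehicle clone4_2 was the next highest. The difference was 0.52 ± 0.56 on the log2 scale, with a 95% interval from -0.72 to 1.76 and an adjusted p of 0.85 (edgeR, Benjamini-Hochberg). Without tamoxifen clone4_1 it was -0.04, and without vehicle clone4_2 it was 1.20 and the groups no longer overlapped. Of 8 blood markers, cells where Kit is best known, Ptprc and Hbb-bt were at 0 in all 7 libraries. The 8 summed to 20.2 to 33.2 CPM with vehicle and 16.4 to 25.4 CPM with tamoxifen, and the part of such cells in the Kit values was not tested.

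Met, the receptor for hepatocyte growth factor, had 1, 5 and 0 counts in the vehicle libraries and 17, 1, 0 and 2 counts in the tamoxifen libraries, and was not tested. Most of its reads came from tamoxifen clone4_1, the library that was also highest for Kit.

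Tie1 encodes an endothelial receptor of the TIE family that has no ligand of its own firmly known and works with TEK, the angiopoietin receptor. It lies at chr4:118471191-118490061 on the minus strand. It stood at 19.9, 26.7 and 20.4 CPM in the vehicle libraries (802, 857 and 838 counts) and at 9.50, 10.9, 10.0 and 5.58 CPM in the tamoxifen libraries (401, 254, 277 and 230 counts). Each tamoxifen library lay below each vehicle library, which is the value that chose the gene. Over all genes tested, 4.74% had groups apart in that direction, and nothing is read from the count of 1 here. The vehicle mean was 22.3 ± 3.78 CPM (SD, n = 3) and the tamoxifen mean 9.01 ± 2.36 CPM (SD, n = 4), a ratio of means of 2.48. The fitted log2 difference was -1.31 ± 0.27 (SE), and it ran from -1.43 to -1.14 over the 7 fits that leave out 1 library and was -1.43 without both clone8_1 libraries. The lowest vehicle library and the highest tamoxifen library were 1.82 times apart. By size of fold change Tie1 was rank 5 of 558 genes that were lower in all tamoxifen libraries and had a mean of at least 10 CPM. The range over fits, the gap and the rank come from the values that chose the gene and are a description. In bulk libraries, fewer cells that express a gene and less RNA per cell cannot be told apart.

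**Figure D3:**
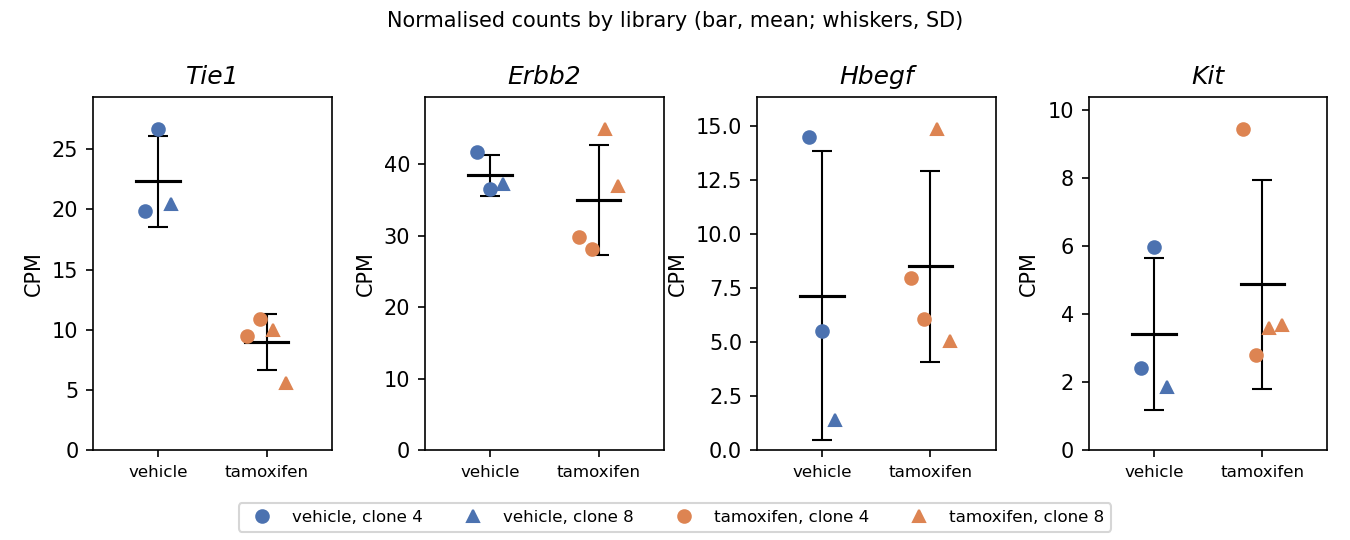
Normalised counts (CPM) of Tie1, Erbb2, Hbegf and Kit in each library, with circles for clone 4, triangles for clone 8, bars for the group mean and whiskers for 1 SD (3 vehicle and 4 tamoxifen libraries). Tie1 is apart between the groups (19.9 CPM or more against 10.9 CPM or less), whereas Erbb2, Hbegf and Kit overlap and Kit has 1 high tamoxifen library at 9.45 CPM.

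As each tamoxifen library lay below each vehicle library, Tie1 was lower with tamoxifen in both clones by construction. The clone values are a description. In clone 4 the mean was 23.3 CPM with vehicle and 10.2 CPM with tamoxifen, and in clone 8 it was 20.4 CPM in the 1 vehicle library and 7.79 CPM with tamoxifen. The differences of log2 CPM were -1.17 and -1.44. Of 10 endothelial markers, Kdr and Erg were at 0 in all 7 libraries, and Tek, the partner of TIE1, reached at most 1.73 CPM. The 10 summed to 118 to 205 CPM with vehicle and 113 to 266 CPM with tamoxifen, most of it Pecam1, and 0 of the 6 tested had an unadjusted p under 0.05 (edgeR). The 10 trophectoderm markers had negative fitted fold changes in 10 of 10 cases, with a median of -0.33 on the log2 scale. At an unadjusted p under 0.05 (edgeR), 3 of 10 passed, beside 5.97% of all genes tested. Groups were apart for 3 of 10 (Gata3, Elf3 and Tfap2c, each lower), beside 8.45% of all genes tested, and 0 had an adjusted p under 0.05. Their sum was 8760 to 11500 CPM with vehicle and 6730 to 9760 CPM with tamoxifen. Of the 8 blood markers, 2 were tested: Gata1 had groups apart, at 13.7 ± 2.59 CPM with vehicle and 7.01 ± 2.17 CPM with tamoxifen (log2 difference -0.96 ± 0.31), and Spi1 overlapped (-0.16 ± 0.29). Of the other blood markers, Lyz2, Csf1r, Tal1 and Hba-a1 had means of at most 0.288 CPM in either group. The part of these markers in the Tie1 values was not tested.

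Hbegf encodes a ligand of EGFR and ERBB4 that is released from the membrane by ADAM17 and is known for its role in implantation. Its counts were 14.5, 5.54 and 1.41 CPM in the vehicle libraries (585, 178 and 58 counts) and 8.00, 6.08, 14.9 and 5.07 CPM in the tamoxifen libraries (338, 141, 413 and 209 counts). The vehicle libraries alone spanned nearly the whole range, from clone8_1 to clone4_1. The difference was 0.25 ± 0.65 on the log2 scale, with a 95% interval from -1.21 to 1.71 and an adjusted p of 0.944 (edgeR, Benjamini-Hochberg). Without vehicle clone8_1 the difference was -0.25, without vehicle clone4_1 it was 1.29, and without both clone8_1 libraries it was -0.66. Its SD within groups, 1.17 on the log2 scale, was above that of 85.4% of genes tested.

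Areg, which encodes amphiregulin, another EGFR ligand, had 0 counts in each of the 7 libraries. A count of 0 allows up to 3 counts, which is 0.0710 to 0.129 CPM in a library and 0.0121 CPM over all 7. Reads carry no molecular identifiers, so these limits cover counting error only.

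The clones were compared with an interaction of clone and condition, in which 3.16% of all genes tested had an adjusted p under 0.05. Among the 6 tested genes other than Tie1 the count was 0. Hbegf came nearest. Its mean was 10.0 CPM with vehicle and 7.04 CPM with tamoxifen in clone 4, but 1.41 CPM in the 1 vehicle library and 9.99 CPM with tamoxifen in clone 8. The interaction was 3.33 ± 1.04 on the log2 scale, with an adjusted p of 0.18 (edgeR quasi-likelihood test, Benjamini-Hochberg). With DESeq2 the adjusted p was 0.00895, and with no filter on low counts edgeR gave 0.00177. The term rests on vehicle clone8_1, the library that stood apart by transcript length, and its part in the value cannot be told apart from the clone. Within clone 4 alone, 0 of the 6 had an unadjusted p under 0.05, beside 7.87% of all genes tested. Erbb2 came nearest there, at -0.44 ± 0.21 on the log2 scale (unadjusted p = 0.0706, adjusted p = 0.674, edgeR). In clone 8 the Erbb2 means were 37.2 CPM with vehicle and 41.0 CPM with tamoxifen, and the interaction for Erbb2 had an adjusted p of 0.513 (edgeR).

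A set of 7 lists with 89 further genes cover the partners of these receptors, and 58 of the 89 were tested. At an unadjusted p under 0.05 (edgeR), 6 genes or 10.3% passed, 2 higher and 4 lower with tamoxifen, beside 5.97% of all genes tested. None had an adjusted p under 0.05. Groups did not overlap for 7 genes or 12.1%, beside 8.45% of all genes tested. The count at an unadjusted p under 0.05 (edgeR) was 11 of 62 (17.7%) without vehicle clone8_1, beside 6.54% of all genes in that fit. Without both clone8_1 libraries that count was 13 of 62 (21%), beside 7.25%. With no filter the count at that threshold was 12 of 78 (15.4%), beside 6.36%. The median log2 fold change of the 58 was 0.01.

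**Figure D4:**
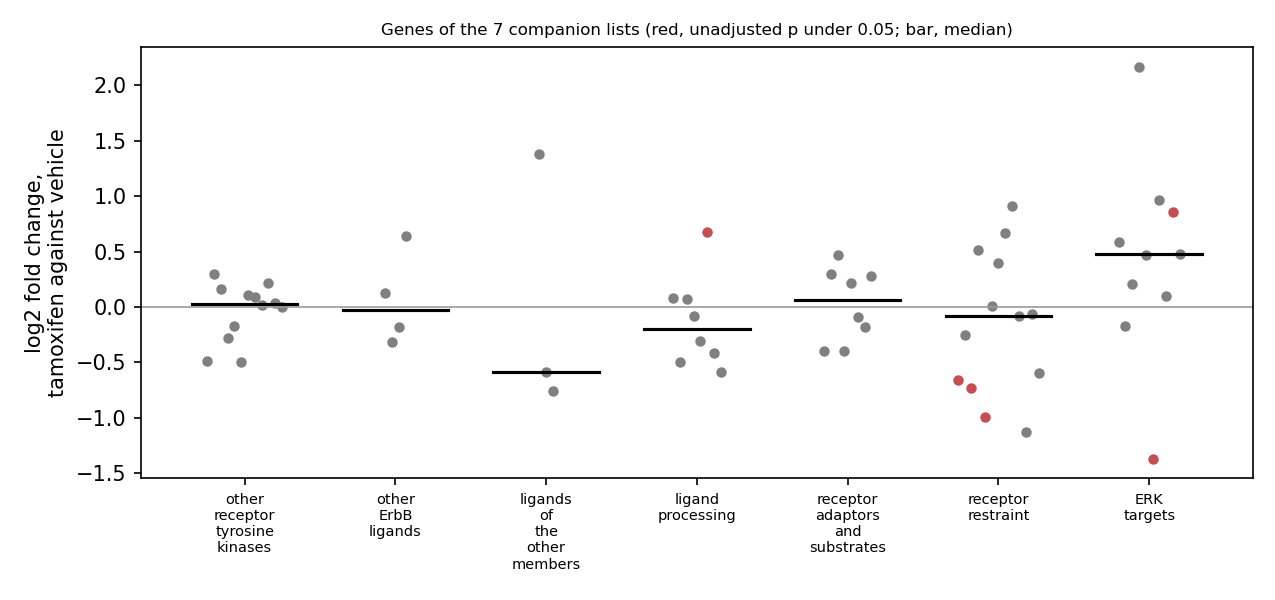
Fitted log2 fold change, tamoxifen against vehicle, of the 58 tested genes in 7 lists, with a bar for the median of each list and red points for an unadjusted p under 0.05. Medians run from -0.59 (ligands of the other receptors, 3 genes) to 0.48 (ERK targets, 10 genes).

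Of 9 other ErbB ligands, 4 were tested and 0 passed an unadjusted p under 0.05, with 2 fold changes above and 2 below 0 and a median of -0.02. Nrg1, a neuregulin that binds ERBB3, had the highest level, 7.97 TPM, with 14.3 ± 6.06 CPM with vehicle and 11.4 ± 4.77 CPM with tamoxifen. Nrg4 followed at 2.43 TPM. Btc, Ereg, Epgn and Nrg3 were at 0 in all 7 libraries, as were the receptors Erbb4, Kdr and Ros1.

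Of 9 ligands of the other receptors, 3 were tested (Igf2, Kitl and Angpt2) and 0 passed, with a median of -0.59. Igf2 led at 2.10 TPM, with 5.97 ± 1.98 CPM with vehicle and 3.97 ± 0.970 CPM with tamoxifen. Angpt2, an angiopoietin and ligand of TEK, was next at 0.333 TPM. Ins1, Ins2, Angpt1 and Angpt4 were at 0 in all 7 libraries.

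Of the 27 other receptor tyrosine kinases, 12 were tested and 0 passed an unadjusted p under 0.05 (edgeR), with 7 fold changes above and 5 below 0 and a median of 0.03. Ryk and Tyro3, which have the highest levels of the list, had log2 differences of 0.22 ± 0.28 and 0.00 ± 0.22.

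All 8 genes of ligand release and presentation were tested, with 3 fold changes above and 5 below 0 and a median of -0.19. Cd9, a tetraspanin that binds the HB-EGF precursor, had the highest level, 1780 TPM, and Rhbdl2, a membrane protease, had 31.1 TPM. Rhbdf2, a cofactor of ADAM17, had an unadjusted p of 0.0128 (adjusted p = 0.794, edgeR) with groups apart, at 11.9 ± 0.960 CPM with vehicle and 19.1 ± 3.18 CPM with tamoxifen, a log2 difference of 0.68 ± 0.23. It was the 1 gene of 8 to pass or to have groups apart, beside 5.97% and 8.45% of all genes tested.

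Of 11 adaptors and substrates, 8 were tested and 0 passed, with 4 fold changes on each side of 0 and a median of 0.07. Shc1 (50.6 TPM) and Gab1 (30.2 TPM) had the highest levels. Gab1 (105 ± 9.27 CPM with vehicle, 79.4 ± 14.0 CPM with tamoxifen) and Plcg1 (15.7 ± 1.76 and 18.3 ± 0.692 CPM) had groups that did not overlap, in opposite directions. These were 2 of 8, beside 8.45% of all genes tested. Irs1, Irs2 and Irs4, docking proteins of the insulin and IGF receptors, had too few counts to be tested.

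Of 15 genes that restrain receptors or their ligands, 13 were tested, with 5 fold changes above and 8 below 0 and a median of -0.08. At an unadjusted p under 0.05 (edgeR), 3 of 13 passed, beside 5.97% of all genes tested. Each was lower with tamoxifen and had an adjusted p of 0.794 (edgeR, Benjamini-Hochberg). Cbl, a ubiquitin ligase that marks active receptors for degradation, was at 44.9 ± 5.49 CPM with vehicle and 28.4 ± 7.29 CPM with tamoxifen, with groups apart. Errfi1, an inhibitor of ErbB kinases that is itself a known target of EGFR signalling, was at 31.4 ± 10.5 and 18.9 ± 4.87 CPM. Grb14, an inhibitor of the insulin receptor, was at 5.73 ± 2.67 and 2.88 ± 0.628 CPM. The groups overlapped for Errfi1 and Grb14. Igfbp4, an IGF-binding protein, also had groups apart, in the other direction, at 0.433 ± 0.188 CPM with vehicle and 0.693 ± 0.0521 CPM with tamoxifen. Groups were thus apart for 2 of 13 genes, beside 8.45% of all genes tested. Igf2r, which clears IGF2, and Ptpn1, a phosphatase of the insulin receptor, had the highest levels in the list (19.4 and 16.6 TPM), with log2 differences of 0.01 ± 0.16 and -0.06 ± 0.19.

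All 10 ERK targets were tested, with 8 fold changes above and 2 below 0 and a median of 0.48. Among cell type markers, fold changes of 8 of 10 naive epiblast genes were above 0 (median 0.41), as were those of 6 of 9 tested primitive endoderm genes (median 0.49), while those of 10 of 10 trophectoderm genes were below 0 (median -0.33). Sox17 and Lama1, of the endoderm list, had groups apart. With vehicle and tamoxifen, Sox17 was at 2.96 ± 2.30 and 17.7 ± 7.93 CPM, and Lama1 at 4.21 ± 0.882 and 10.8 ± 4.17 CPM. Dab2, Pdgfra and Fgfr2, of the same list, had fold changes below 0 (-0.21, -0.5 and -0.07 on the log2 scale). Groups were apart for 2 of 9 endoderm, 3 of 10 trophectoderm and 0 of 10 naive epiblast genes, beside 8.45% of all genes tested. The part of these cells in the ERK target values was not tested. Spry2, a feedback inhibitor of receptor signalling and the most abundant of the list at 72.8 TPM, was at 64.8 ± 18.6 CPM with vehicle and 118 ± 10.2 CPM with tamoxifen (log2 difference 0.86 ± 0.21). Fos, an immediate early gene, went the other way, at 67.7 ± 26.0 and 26.1 ± 11.9 CPM (-1.37 ± 0.36). Etv5, an ETS factor and the gene with the next highest level at 49.7 TPM, was at 96.5 ± 10.8 and 134 ± 35.8 CPM. Groups did not overlap for Spry2 and Fos (2 of 10, beside 8.45% of all genes tested). The same 2 of 10 had an unadjusted p under 0.05 (edgeR), beside 5.97% of all genes tested, and no gene of the list had an adjusted p under 0.05.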

How the data were processed

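RNA was measured in 7 libraries, 3 vehicle and 4 tamoxifen, grouped by the treatment labels. The authors deposited raw counts per Ensembl gene, not normalised. Per the submitters' processing notes, bcl2fastq 2.19.1, STAR 2.5.3a and the build mm10 were used; the counting program, annotation, strand setting and treatment of duplicates are not given in the sources used here, so reads of overlapping genes may be shared. Gene IDs were matched to GENCODE M21 (GRCm38) for 52489 of 52636 genes.

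The test was made in R 4.3.3 with edgeR 4.0.16 on these counts (TMM factors, the edgeR expression filter by group, quasi-likelihood test, condition as the only term, Benjamini-Hochberg over all genes tested), with DESeq2 1.42.0 as an alternative. The test was also run on simulated counts in which every gene had the same dispersion. These held no clone effect and no library that stood apart, so they do not show how the test behaves with such features. CPM use TMM factors and log2 CPM a prior count of 2. TPM were computed from the counts with the median length of each gene's transcripts. Groups do not overlap when every CPM of one lies below every CPM of the other. The 10 genes and all lists were chosen with earlier results of these data known. Named are the 10 genes and, from each list, genes with an unadjusted p under 0.05 and the 2 highest per length. Others were named for non-overlapping groups, zero counts, their receptor rank, their share of a marker sum or a fold change below 0. These and the genes near Tie1 were picked after their values were seen. One gene of the lists is not reported here and is left out of their counts. Marker lists covered naive epiblast, primitive endoderm, trophectoderm, endothelium, blood and oviduct; the 5 oviduct markers summed to 0.405 to 1.27 CPM. Replicate numbers in the titles follow the clone and no pairing is stated there, so none was used in the main test. Alternatives were another scaling, prior count, filter, length, clone as a covariate, a replicate block and leaving out libraries.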

Additional observations from a re-analysis of the deposited data

Results flagged for a closer look

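In the tamoxifen group (n = 4), 3 of the 9 genes other than Areg had a library that stood apart from the others by Dixon's test, in which the gap to the nearest library, divided by the whole range, exceeded the 95% critical value for 4 values. Egfr was at 0.753 CPM in clone8_2 and at 0 in the other tamoxifen libraries. Kit was at 9.45 CPM in clone4_1, where the nearest library was at 3.67 CPM (gap over range 0.870). Met was at 0.403 CPM in the same clone4_1 library, where the nearest was at 0.0486 CPM (0.879). Chance alone marks about 1 in 20 groups of normally distributed values. In these data the same mark fell on 6.53% of the 16248 genes tested, Kit among them, and on 50.2% of the 9989 genes with a count in a tamoxifen library that did not pass the filter, Egfr and Met among them. With 3 libraries at 0 the Egfr ratio is 1 by construction, and the Egfr and Met values rest on 31 and 17 counts. Groups of 3 are too small for the test, so the vehicle libraries were not examined.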

How the results depend on the processing

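Between tamoxifen and vehicle, 0 of the 6 tested genes other than Tie1 had an unadjusted p under 0.05 as reported or in any alternative run. Genes called in the whole table numbered 0, against 4 with DESeq2, 2 without both clone8_1 libraries and 0 in each fit that left out 1 library. List genes with an unadjusted p under 0.05 numbered 6, against 12 with no filter, 13 without both clone8_1 libraries and 5 to 11 when 1 library was left out. The interaction with clone called 0 of the 7 tested genes, against 1 (Hbegf) with DESeq2, 1 (Hbegf) with no filter and 0 when 1 tamoxifen library was left out; it was not run with a vehicle library left out. Within clone 4, 0 of the 6 passed an unadjusted p under 0.05 (edgeR). With no filter on low counts Egfr, which is not among the 6, passed. It had 22 and 7 counts in the vehicle libraries of clone 4 and 0 in both tamoxifen libraries, so nothing is read from it. When 1 library was left out, log2 differences included -0.524 (Erbb2) and -1.04 (Hbegf) without vehicle clone4_2, and -3.77 (Igf1r) without tamoxifen clone4_2. Those fits set 1 library against 2, take the spread from the pair, moderated over all genes, and assume that the lone library varies like it. Only effect sizes are given for those fits, for genes picked by their result there, and the 0 within clone 4 does not cover them. Non-overlapping groups numbered 0, against 1 (Erbb3, lower) without both clone8_1 libraries and 0 to 1 when 1 was left out (Kit, higher, without vehicle clone4_2). The sign turned in 14 of 84 alternatives for the 6 genes, and the cause was not tested. Erbb3 was 0.02 on the log2 scale, against -0.0106 with clone as a covariate, -0.0143 with a replicate block, -0.17 without both clone8_1 libraries and -0.0853 to 0.109 when 1 library was left out. Hbegf was -0.66 without both clone8_1 libraries and -0.25 to 1.29 when 1 was left out. Igf1r was -0.40 with the replicate block and -0.537 to 0.995 when 1 was left out, Insr -0.0152 to 0.272 and Kit -0.0375 to 1.20. Erbb2 was below 0 in 14 of 14 alternatives, from -0.278 to -0.0564 when 1 library was left out. Libraries with the same number in the titles had correlations of deviations of 0.008, 0.021 and -0.068. The best match of each vehicle library was also near 0 (0.055, 0.024 and 0.062), so these values cannot show whether the numbers pair libraries. The replicate block changed no call. The order of levels kept 8 to 10 of 10 positions under other lengths or with a vehicle library left out. With 3 and 4 pools, 95% intervals reach as far as 2.38 on the log2 scale (Igf1r), and for Egfr, Met and Areg the counts allow no comparison.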

Other observations

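The protein-coding and other tested genes with an end within 50000 bases of Tie1 on chromosome 4 were Cdc20, 2610528J11Rik and Elovl1, examined after the Tie1 values were seen. Elovl1, a fatty acid elongase on the plus strand 38238 bases away, was at 77.9 ± 29.6 CPM with vehicle (SD, n = 3) and at 46.3 ± 6.51 CPM with tamoxifen (SD, n = 4), with groups apart and lower with tamoxifen (log2 difference -0.75 ± 0.24, adjusted p = 0.794, edgeR). Cdc20, an activator of the anaphase-promoting complex on the minus strand, was also lower in all tamoxifen libraries, at 523 ± 73.7 and 446 ± 10.0 CPM, though by less (-0.23 ± 0.15, adjusted p = 0.803, edgeR). For 2610528J11Rik the groups overlapped, at 160 ± 72.3 and 163 ± 30.4 CPM (0.02 ± 0.31). Over all genes tested, 4.74% had groups apart and lower with tamoxifen, and nothing is read from the count among so few neighbours. A shared change at this locus was not tested.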
